A study of Mus musculus with 8 samples.

Results

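Amino acid transporters were examined in microglia, the brain's own macrophages, from mice that lack multifunctional protein-2 (MFP2) and from control mice. MFP2 is an enzyme of peroxisomal beta-oxidation encoded by Hsd17b4. The members were the genes whose symbol starts with Slc1a, Slc3a, Slc6a, Slc7a, Slc36a, Slc38a or Slc43a, taken from probe sets annotated to a single gene. This gave 64 of the 19938 genes tested, on 66 probe sets. Of these, 62 are transporter subunits, and the opposite-strand genes Slc7a6os and Slc6a19os carry the prefix without being transporters. The families also hold carriers of other substrates, such as monoamines (Slc6a2, Slc6a3, Slc6a4), creatine (Slc6a8), taurine (Slc6a6) and purine bases (Slc43a3).

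The 4 knockout arrays came from Swiss Webster animals labelled MFP2 knockout, and the 4 control arrays from Swiss Webster animals labelled wild type. All were labelled female and 17 weeks old. Sorting from whole brain took cells bright for CD11b and of middling CD45, and their RNA was amplified and hybridised to 1 array per sample. The labels do not say how the knockout allele was made or whether every array stands for its own animal, so the p-values refer to the spread among these arrays, which may be technical in part. Values are log2 expression, so a difference of 1 is a doubling. Levels of different probe sets are not compared with each other, since probes differ in how strongly they bind.

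Cells take up amino acids through carriers that differ in substrate and in what drives them. The Slc7 light chains exchange amino acids across the membrane and mostly need a heavy chain, Slc3a2 or Slc3a1, to reach it. Sodium drives the Slc1, Slc6 and most Slc38 carriers, and protons drive some of the Slc36 carriers, such as Slc36a1, which works at the lysosome. In macrophages such carriers supply leucine to the growth regulator mTORC1, arginine to nitric oxide synthase and arginase, and cystine to glutathione synthesis.

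Hsd17b4 lay between 7.82 and 9.09 on the control arrays and between 4.76 and 7.20 on the knockout arrays, a log2 change of -2.88 (limma adjusted p = 0.00158). Knockout 2 stood apart at 7.20, where the other 3 knockout arrays lay at 4.76 to 5.21. Over the 1905 called genes, control 3 was the control nearest to the knockouts for 61.3%, and knockout 2 the knockout nearest to the controls for 43.1% (knockout 1 for 37.9%). Control 1 carried Y-linked transcripts against its female label, with Eif2s3y at 8.14 where no other array exceeded 2.99. Xist, a transcript typical of females, was 6.80 on control 1 and 10.55 to 10.99 on the other arrays. Array medians ran from 6.03 to 6.15. The microglial markers were present, with all 11 measured of 12 listed above the median of at least 4 arrays. Of these markers, 7 were lower in knockouts (63.6%, beside 4.17% of all genes). In sorted bulk RNA, fewer cells of a type and less RNA per cell cannot be told apart.

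Of the 64 genes, 11 were higher in knockout microglia and 0 were lower, while 53 did not pass the test (limma, Benjamini-Hochberg adjusted over all 19938 genes, threshold 0.05). At an unadjusted p under 0.05 there were 17 of the 64 members, against 4196 of all 19938 genes (21.0%). Among all genes tested 9.55% were called, 5.38% higher and 4.17% lower, against 17.2% of the members, all in 1 direction. The median log2 change of the members was -0.01, beside -0.02 over all genes. The groups did not overlap for 14 members (21.9%), of which 13 were higher in knockouts, against 14.0% of all genes. Every family except Slc1a had at least 1 higher member. Cyclic loess scaling called 2 members lower, Slc7a7 and Slc7a8. Slc7a8 was also called lower without control 3, and without both control 3 and knockout 2. Of the 11 higher members, 7 stayed called without control 1, and likewise without knockout 3 and without knockout 4. Without both control 3 and knockout 2, 8 stayed called and Slc38a10 was newly called higher. For Slc7a8 and Slc38a10, control 3 was the control nearest to the knockouts, so leaving it out widens the difference by itself.

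**Figure D1:**
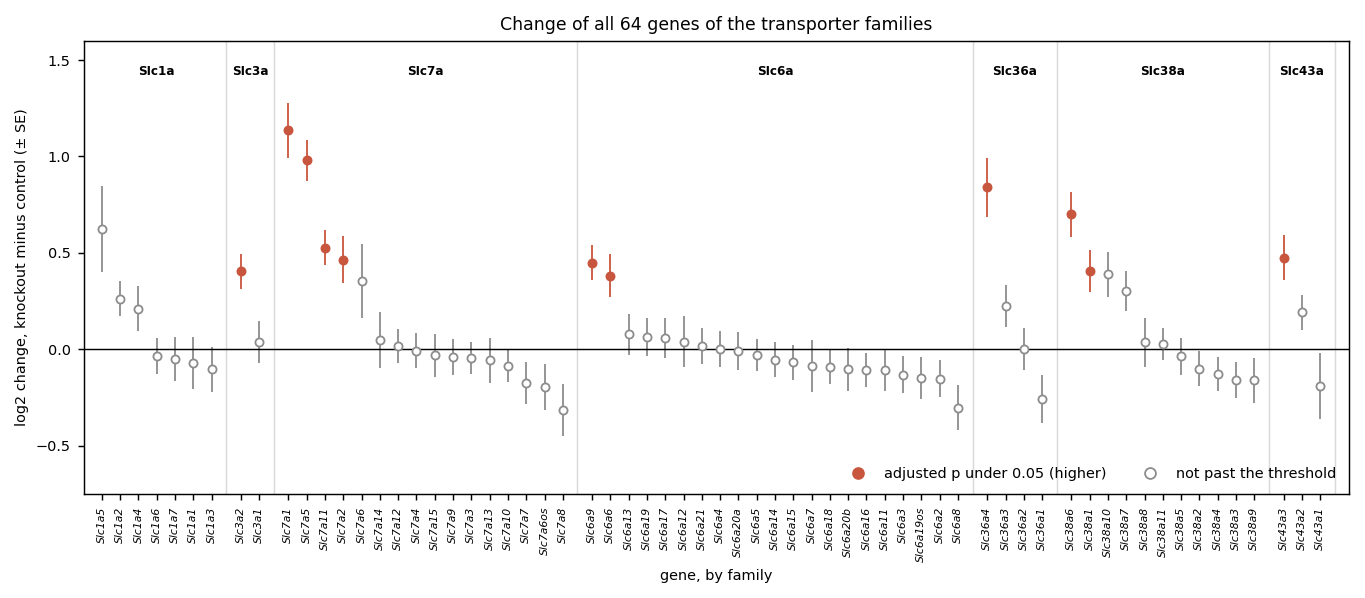
Log2 change (knockout minus control, y axis) of each of the 64 genes, grouped by family along the x axis. Points are estimates of the limma fit, bars are its standard errors, and filled points passed the adjusted p threshold. The 11 filled points all lie above 0, and no gene below 0 passed.

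Of the 64 genes, 29 were above the array median on at least 4 arrays and 35 were not, beside 10663 of all 19938 genes that were. Of the 20 symporters of the Slc6a family, 15 failed this filter. Slc7a2 and Slc7a11, both called higher, were above the median on no array. Across the 11 higher genes, knockout 4 gave the highest knockout value for 7 genes and knockout 2 the lowest for 6. Control 2 gave the highest control value for 6 genes.

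Among the light chains, Slc7a5 rose most. It carries large neutral amino acids such as leucine and is the main route of leucine into many growing cells. Its values were 9.11, 9.44, 9.38 and 9.38 on control 1 to 4 and 10.20, 10.16, 10.42 and 10.45 on knockout 1 to 4. The lowest knockout value lay 0.72 above the highest control value. The change was 0.98 ± 0.11 on the log2 scale (SE, n = 4 and 4), or 1.97-fold (limma adjusted p = 0.000290).

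Slc3a2, the heavy chain that pairs with Slc7a5 and several other light chains, rose by less. It read 10.11, 9.97, 10.03 and 10.17 on the control arrays and 10.55, 10.29, 10.51 and 10.54 on the knockout arrays. The groups stood 0.12 apart, with knockout 2 the lowest knockout array. The log2 change was 0.40 ± 0.09 (SE), or 1.32-fold (limma adjusted p = 0.0145). The call was lost with cyclic loess scaling, where the change was 0.24 (adjusted p = 0.121). Slc3a1, the heavy chain known for cystine uptake in the kidney, was 5.24 ± 0.15 (SD, n = 4) in controls and 5.28 ± 0.17 in knockouts.

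Slc7a11 imports cystine in exchange for glutamate and so feeds glutathione synthesis. It measured 3.91, 3.83, 3.98 and 3.88 on control arrays and 4.31, 4.41, 4.37 and 4.62 on knockout arrays. All knockout values were above all control values, but every value was far below the array median. This is a log2 change of 0.53 ± 0.09 (SE), or 1.44-fold (limma adjusted p = 0.00320), and RMA tends to understate changes of genes this dim.

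The promoter of Slc7a11 is shown because among the 6 higher members with an entry it alone holds a C/EBP-ATF response element, the element through which the transcription factor ATF4 acts on amino acid supply. The element was searched as TGATGNAA on both strands of the 250 bases before each RefSeq start (GRCm38.p6), and matches are in capitals. Slc7a11 had 2 matches, at chr3:50443614-50443863 on the minus strand. Slc7a11 had 1 window, while Slc7a7, a light chain that was not called, had 5, not all of which held the element. The Slc7a7 window at chr14:54417945-54418194 on the minus strand had 1 match and is shown beside that of Slc7a11, read 5′ to 3′.
Slc7a11: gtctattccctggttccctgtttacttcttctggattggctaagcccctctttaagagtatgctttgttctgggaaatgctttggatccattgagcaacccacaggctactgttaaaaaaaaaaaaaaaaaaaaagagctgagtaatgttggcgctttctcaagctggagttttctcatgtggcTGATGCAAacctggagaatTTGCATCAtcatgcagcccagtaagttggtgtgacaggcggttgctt
Slc7a7: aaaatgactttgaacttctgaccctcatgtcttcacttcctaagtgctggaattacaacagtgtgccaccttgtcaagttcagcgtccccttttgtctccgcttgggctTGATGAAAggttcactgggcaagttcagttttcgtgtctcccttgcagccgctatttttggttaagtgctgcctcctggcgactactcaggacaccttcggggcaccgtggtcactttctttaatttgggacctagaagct

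The Slc7a11 matches lay 66 to 59 and 47 to 40 bases before the start, once in each orientation, and the Slc7a7 match 141 to 134 bases before it. Of all 32851 promoter windows in the RefSeq set, 3.45% held the element, and 4 of the 68 windows of members did (5.88%). These 4 windows belonged to Slc7a11, Slc7a7 and Slc6a21. Entries were found for 47 members, 6 of them among the higher genes. Slc7a5, Slc7a2, Slc38a1, Slc43a3 and Slc6a6 had no entry. The antioxidant response element, searched as TGACNNNGC on both strands, was in 10.2% of all windows and in 9 of the 68 windows of members (13.2%), including those of Slc7a1 and Slc6a9. A match describes letters and not binding.

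The other light chains did not pass the test. Slc7a8, which also carries large neutral amino acids, read 10.14, 10.33, 9.69 and 10.33 in controls and 9.76, 9.70, 9.86 and 9.92 in knockouts. The groups overlapped only through control 3, the lowest of the 8 arrays. The log2 change was -0.31 ± 0.13 (SE, limma adjusted p = 0.198). Without control 3 it was -0.46 (adjusted p = 0.0136), and with cyclic loess -0.44 (adjusted p = 0.0466). Leaving out control 3 widens the difference by itself, so that value adds no support. Slc7a7, which exchanges cationic for neutral amino acids, was 10.34 ± 0.16 (SD) in controls and 10.17 ± 0.15 in knockouts. It passed only with cyclic loess, at -0.33 (adjusted p = 0.0407). Slc7a6, of the same type, spread from 7.29 to 8.28 in knockouts against 7.14 to 7.56 in controls, with knockout 3 highest (limma adjusted p = 0.335). Slc7a6os, on the opposite strand at Slc7a6, was 8.52 ± 0.23 (SD) in controls and 8.33 ± 0.15 in knockouts.

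Light chains that share Slc3a2 were then set against it on each array, as a description, since the pairs were chosen after the values had been seen. The level of such a difference has no meaning of its own, and only its shift between groups is read. Because Slc3a2 itself changed by 0.40, a light chain with no change of its own would shift by about as much downward. The shift was 0.58 for Slc7a5, from -0.74 ± 0.20 (SD) in controls to -0.17 ± 0.13 in knockouts. It was -0.72 for Slc7a8, -0.58 for Slc7a7 and -0.49 for Slc7a10, a carrier of small neutral amino acids. The own changes of these 3 genes were -0.31, -0.17 and -0.08, none of them called, so the change of Slc3a2 made up the larger part of each shift. Slc7a11 shifted by 0.12 and Slc7a6 by -0.05, both with overlapping groups. With cyclic loess scaling the shift was 0.30 for Slc7a11 and -0.31 for Slc7a10. Slc7a5 relative to Slc7a8, a difference that does not involve Slc3a2, shifted by 1.29. Control 3, at -0.32, was the control nearest to the knockouts, which lay at 0.44 to 0.56.

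**Figure D2:**
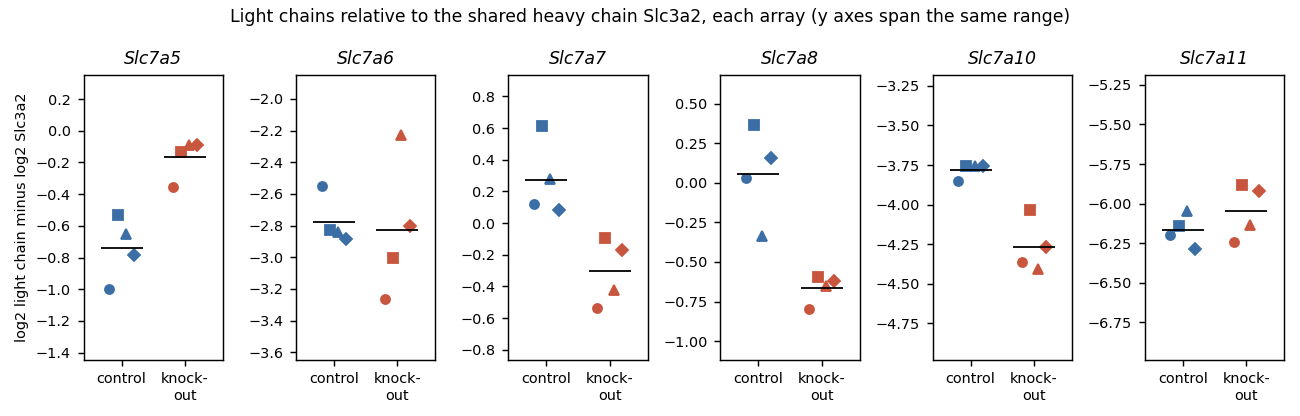
Log2 value of 6 light chains minus the log2 value of Slc3a2 on the same array (y axis), for control (blue) and knockout (red) arrays. Marker shapes give the array number within its group, and lines are group means. Slc7a5 shifted up by 0.58, Slc7a8, Slc7a7 and Slc7a10 shifted down without overlap, beside the 0.40 by which Slc3a2 itself rose, and the other 2 overlapped.

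The cationic amino acid transporters gave the largest change of any member. Slc7a1, the general carrier of arginine and lysine, read 6.71, 7.00, 7.22 and 6.61 on the control arrays and 7.88, 7.84, 8.29 and 8.07 on the knockout arrays. The gap between groups was 0.62. Knockouts were thus higher by 1.14 ± 0.14 log2 units (SE), or 2.20-fold (limma adjusted p = 0.000554).

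Slc7a2, a cationic transporter that macrophages induce on activation, was dim, at 5.11, 4.98, 5.15 and 4.76 in controls and 5.27, 5.41, 5.41 and 5.78 in knockouts. The groups were 0.12 apart, and knockout 4 stood above the rest. The log2 change was 0.47 ± 0.12 (SE), or 1.38-fold (limma adjusted p = 0.0330). Leaving out control 1 ended this call (adjusted p = 0.0536), as did leaving out control 2 (0.0836), control 4 (0.100), knockout 2 (0.0511), knockout 3 (0.0668) and knockout 4 (0.0785). Slc7a3, Slc7a4 and Slc7a14 changed by -0.04, -0.01 and 0.05 and did not pass.

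**Figure D3:**
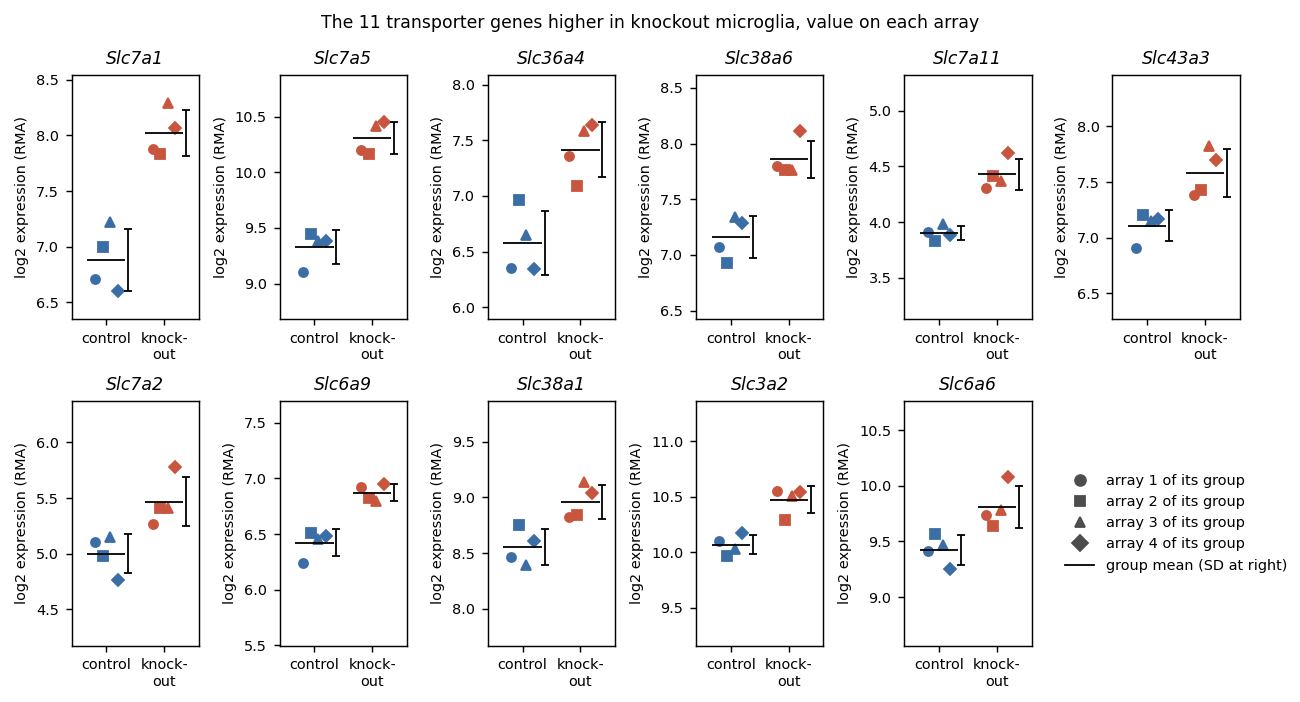
Log2 expression (y axis) of the 11 higher genes on each control (blue) and knockout (red) array. Marker shapes give the array number within its group, lines are group means with the SD beside them, and every panel spans the same range of log2 units. Slc7a1, Slc7a5, Slc36a4 and Slc38a6 show the largest changes, 1.14, 0.98, 0.84 and 0.70.

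Of the Slc36 carriers, Slc36a4, which takes up proline and tryptophan, rose. Its values were 6.35, 6.96, 6.65 and 6.35 in controls and 7.36, 7.09, 7.58 and 7.64 in knockouts. Control 2 and knockout 2 were the closest pair, 0.13 apart. The groups differed by 0.84 ± 0.15 on the log2 scale (SE), or 1.79-fold (limma adjusted p = 0.00440). Slc36a1, which exports small amino acids from lysosomes, was 10.19 ± 0.21 (SD) in controls and 9.93 ± 0.19 in knockouts and did not pass (limma adjusted p = 0.272). The difference between both genes was not tested.

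Of the 11 sodium-coupled neutral carriers, 2 were higher (18.2%, beside 5.38% of all genes). Slc38a6 read 7.07, 6.93, 7.34 and 7.29 in controls and 7.80, 7.76, 7.77 and 8.11 in knockouts. The groups were 0.42 apart, and knockout 4 stood alone above the other 3 knockouts. The log2 change was 0.70 ± 0.12 (SE), or 1.63-fold (limma adjusted p = 0.00250). Slc38a1, a carrier of glutamine, read 8.46, 8.75, 8.40 and 8.61 against 8.82, 8.84, 9.14 and 9.04. Its groups were only 0.07 apart, and the change was 0.40 ± 0.11 (SE, limma adjusted p = 0.0342). The call ended when control 1 was left out (adjusted p = 0.101), and likewise for control 3 (0.0851), control 4 (0.0649), knockout 3 (0.112) and knockout 4 (0.0855). A second probe set of Slc38a1 changed by 0.46 and missed the threshold over all probe sets (limma adjusted p = 0.0878).

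Slc38a2, the glutamine carrier best known for its induction when amino acids are scarce, did not pass the test. It read 9.72, 9.75, 9.70 and 9.72 in controls and 9.76, 9.50, 9.48 and 9.75 in knockouts, a log2 change of -0.10 ± 0.09 (SE, limma adjusted p = 0.626). The control values were close together, and knockout 2 and knockout 3 lay below them. Slc38a9, the lysosomal carrier that signals arginine to mTORC1, changed by -0.16 (limma adjusted p = 0.504). Its second, dimmer probe set changed by -0.35 (limma adjusted p = 0.0266 over all probe sets), so the probe sets differ in whether they pass. Slc38a7, which exports glutamine from lysosomes, was 8.22 ± 0.14 (SD) in controls and 8.52 ± 0.16 in knockouts (limma adjusted p = 0.103).

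Slc38a10 stood just outside the threshold, at 0.39 ± 0.12 (SE, limma adjusted p = 0.0552). Its values were 8.50, 8.39, 8.71 and 8.35 in controls and 8.81, 8.66, 8.95 and 9.10 in knockouts, and control 3 lay above knockout 2. It passed under 7 alternatives, among them median centring (limma adjusted p = 0.0448), cyclic loess (0.0465), array weights (0.0498) and the filter on dim genes (0.0379), with changes of 0.38 to 0.40. It also passed without control 3 (0.46, adjusted p = 0.0280), without knockout 2 (0.46, adjusted p = 0.0282) and without both (0.54, adjusted p = 0.0133). The groups overlap only through these arrays, so leaving out either widens the difference by itself and adds no support.

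The Slc6 family had 2 higher members of 20 (10.0%, beside 5.38% of all genes). Slc6a9, the glycine transporter of glia and neurons, read 6.24, 6.51, 6.46 and 6.48 in controls and 6.92, 6.82, 6.80 and 6.95 in knockouts. The groups were 0.29 apart, and the change was 0.45 ± 0.09 (SE), or 1.37-fold (limma adjusted p = 0.00754). Slc6a6, the taurine transporter, read 9.42, 9.57, 9.47 and 9.25 against 9.74, 9.64, 9.78 and 10.08. Here the gap was 0.07, and the change was 0.38 ± 0.11 (SE, limma adjusted p = 0.0490). Leaving out any array but knockout 2 ended that call (adjusted p = 0.0560 to 0.142). Slc6a8, the creatine transporter, was 6.55 ± 0.17 (SD) in controls and 6.25 ± 0.19 in knockouts (limma adjusted p = 0.149).

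In the Slc43 family, Slc43a3 was higher. It read 6.91, 7.20, 7.15 and 7.17 in controls and 7.38, 7.43, 7.83 and 7.70 in knockouts, with a gap of 0.18. The knockout mean was higher by 0.48 ± 0.12 log2 units (SE), or 1.39-fold (limma adjusted p = 0.0219). It was no longer called when control 1 (adjusted p = 0.0733), knockout 3 (0.0733) or knockout 4 (0.0614) was dropped. Slc43a2, a carrier of neutral amino acids, changed by 0.19 ± 0.09 (SE, limma adjusted p = 0.240).

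None of the 7 Slc1 genes was called, and 2 of them had an unadjusted p under 0.05 (limma), beside 21.0% of all genes. Slc1a5, the exchanger best known for glutamine uptake, had the widest knockout spread, 6.09, 6.17, 6.79 and 7.26 against 5.85, 5.70, 6.18 and 6.08 in controls. Knockout 3 and knockout 4 were high, while knockout 1 and knockout 2 lay among the controls. The log2 change was 0.63 ± 0.22 (SE, limma adjusted p = 0.111), and without knockout 1 it was 0.79 (adjusted p = 0.0372). Knockout 1 was the lowest knockout, so leaving it out widens the difference by itself. Slc1a2, the main glutamate transporter of astrocytes, was 6.06 ± 0.13 (SD) in controls and 6.33 ± 0.08 in knockouts (limma adjusted p = 0.107). Slc1a3, the other astrocytic glutamate transporter, was 8.88 ± 0.17 in controls and 8.78 ± 0.19 in knockouts.

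Several transporters also mark other brain cells, so marker lists were read beside them. Over all genes tested, 9.55% were called, 5.38% higher and 4.17% lower. Endothelial cells of the brain are rich in Slc7a5, Slc7a1, Slc3a2 and Slc6a6. Of 10 measured endothelial or mural markers, 1 was higher (Flt1, from 5.68 to 7.67) and 1 lower (Pecam1, from 7.57 to 6.01). Their summed linear level ran from 500 to 605 on control and from 466 to 693 on knockout arrays. Of the 8 not called, 7 were above the array median on fewer than 4 arrays. Among these were Cldn5 (5.79 in controls and 5.69 in knockouts), Abcb1a (5.26 and 5.24) and Slco1a4 (3.46 and 3.40). Astrocytes express Slc1a2, Slc1a3 and Slc6a9. Of 9 astrocyte markers 2 were higher, Gfap (from 5.42 to 6.69) and Aldoc (from 6.36 to 7.13), and the summed level was 448 to 490 in controls and 493 to 607 in knockouts. Of the 7 astrocyte markers not called, 6 were above the array median on fewer than 4 arrays, Aqp4 (4.77 and 4.75) among them. Oligodendrocyte markers had 2 of 10 higher, Mbp (from 7.16 to 7.75) and Cspg4 (from 5.91 to 6.79), with sums of 697 to 765 and 793 to 928. Over the 10 markers, 5 changes were positive and 5 negative, with a median of -0.02. Of the 8 not called, 4 were above the array median on fewer than 4 arrays. Border macrophage markers had 1 of 8 higher and 5 lower, with sums of 1227 to 1827 and 635 to 985. Neuron, choroid plexus and lymphocyte lists had 0 called, of 10, 7 and 9 markers (limma). At an unadjusted p under 0.05 these had 1, 0 and 2, beside 21.0% of all genes. All 9 lymphocyte markers had a higher mean in knockouts, with a median log2 change of 0.28 and overlapping groups, and sums of 612 to 888 and 811 to 1117. Cd3g, a T cell receptor subunit, differed most, at 6.27 ± 0.59 (SD) and 7.29 ± 0.73 (limma adjusted p = 0.0859). Monocyte or neutrophil markers had 1 lower of 8, with sums of 3013 to 18704 and 7026 to 12341. The part of these cells in the transporter changes was not tested.

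Genes outside the transporter families that sense or use amino acids moved in both directions. In the list of amino acid sensing upstream of mTORC1, 6 of 38 measured genes were higher and 1 lower, 18.4% against the 9.55% of all genes, with a median log2 change of 0.05. Rragd and Rragc encode GTPases that recruit mTORC1 to lysosomes when amino acids are present. Rragd read 5.01 ± 0.33 (SD) in controls and 6.14 ± 0.41 in knockouts, a change of 1.14 (limma adjusted p = 0.00339), and Rragc changed by 0.43 (0.0109). Lamtor1, which anchors these GTPases to the lysosome, rose by 0.69 and Fnip2, a partner of folliculin, by 0.61. The sestrins, stress-induced inhibitors of mTORC1, split. Sesn2, a leucine sensor, rose from 7.08 ± 0.20 (SD) to 7.86 ± 0.17, a change of 0.78 (limma adjusted p = 0.00151). Sesn1 fell from 10.04 ± 0.16 to 9.13 ± 0.17, a change of -0.92 (limma adjusted p = 0.000441). Lars, which charges leucine onto its tRNA, rose by 0.35 but leaving out any array but knockout 2 ended the call (adjusted p = 0.0510 to 0.121). Without control 3 the list had 2 lower genes.

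In the list on use of cystine, glutamate, glutamine and arginine, 7 of 31 measured genes were higher and 2 lower. That is 29.0% in all, beside the 9.55% of all genes, with a median log2 change of 0.03. Got1, which interconverts glutamate and aspartate, rose from 7.59 ± 0.17 (SD) to 8.76 ± 0.11, a change of 1.16, or 2.24-fold (limma adjusted p = 0.000169). Gpt2, another aminotransferase, rose by 0.41, a call that ended when control 1 was left out (adjusted p = 0.0715), and likewise for control 2 (0.0617), control 4 (0.0677), knockout 3 (0.0799) and knockout 4 (0.0670). Glul, which makes glutamine from glutamate, fell from 11.55 ± 0.11 to 10.86 ± 0.15, a change of -0.69 (limma adjusted p = 0.00103). Chac1, which degrades glutathione, rose by 0.83, Ggct by 0.59 and the peroxidase Gpx4 by 0.43, while Ggt5 fell by 0.87. The glutathione synthesis and recycling genes of the list were not called, with changes of 0.27 for Gclc, -0.02 for Gclm, 0.03 for Gss and 0.26 for Gsr (limma adjusted p = 0.204 to 0.970). Gpx4 was not called without knockout 3 (adjusted p = 0.0503). The peptidase Anpep rose by 0.85. Without knockout 3 the list had 4 higher genes.

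Among 12 measured carriers of amino acids and peptides from other families, 2 were higher and 1 lower, 25.0% beside the 9.55% of all genes, with a median log2 change of 0.03. Slc16a10, which carries aromatic amino acids, rose from 6.75 ± 0.19 (SD) to 7.50 ± 0.39 (limma adjusted p = 0.0133). Mfsd12, which moves cysteine into lysosomes and melanosomes, changed by 0.60 and was not called without control 4 (adjusted p = 0.0508), where the list had 1 higher gene. Slc15a2, a carrier of small peptides, fell from 5.08 ± 0.22 to 4.54 ± 0.14 (limma adjusted p = 0.0119). It was dim, above the array median on 0 arrays.

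**Figure D4:**
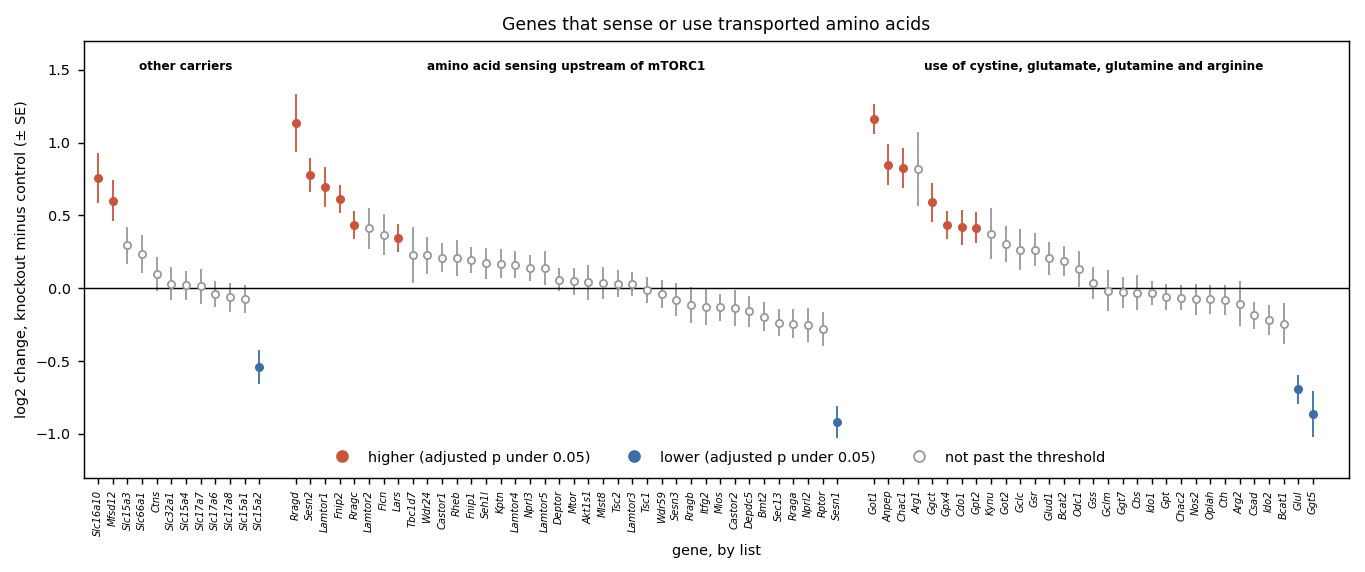
Log2 change (knockout minus control, y axis) of the measured genes of 3 lists along the x axis, namely other carriers, amino acid sensing upstream of mTORC1, and use of cystine, glutamate, glutamine and arginine. Points are estimates with standard errors, red for higher and blue for lower genes past the threshold. Rragd and Got1 lie highest, at 1.14 and 1.16, and Sesn1 and Ggt5 lowest, at -0.92 and -0.87.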

How the data were processed

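The authors deposited log2 values for each probe set and array. The submitters' processing notes name RMA. Its program and chip files are not stated in the sources read here. The log base was inferred from the values, which ran from 2.04 to 13.99. RMA equalises arrays and so hides any change common to most genes. RNA was amplified before labelling, per the labels' protocols, which can favour some transcripts. Of 28874 probe sets, 21789 had 1 gene symbol, 1621 several and 5464 none. Genes were named from the first kind, and 0 symbols differed from RefSeq among 21698 matched by gene number. A gene with several probe sets was represented by that with the highest mean over all 8 arrays, and 2 members had a second one. No member probe set was left out for carrying several symbols.

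Knockout minus control was fitted over all 19938 genes in limma 3.58.1 (R 4.3.3) by a two-sided moderated test without covariates, adjusted by Benjamini-Hochberg, threshold 0.05. The method was tested on simulated data. Differences between light and heavy chain values, and between Slc7a5 and Slc7a8, were put through an exact permutation test. Its p-values are not read, since the pairs were chosen after seeing the values. The number of arrays limits the precision. Genes were named by rule: Hsd17b4; every called member; of the rest the 10 with the highest mean and the 5 with the smallest adjusted p; both heavy chains; and up to 8 called genes of each list. A few members outside it (Slc7a6, Slc7a10, Slc6a19os, Slc7a3, Slc7a4, Slc7a14, Slc6a2, Slc6a3, Slc6a4, Slc6a21), Gclc, Gclm, Gss, Gsr and the marker genes were named after their values were seen. Members, lists and naming rule were chosen with earlier results of these data known, and the promoter motifs and light chain pairs after seeing the values. Alternatives were a filter on dim genes (above the median on at least 4 arrays), quantile, median and cyclic loess scaling, the mean of probe sets, an intensity trend with robust prior, array weights, a replicate block, each array left out, control 3 and knockout 2 left out, at least 1.5-fold change and an adjusted p under 0.01. Control 3 and knockout 2 were the control and the knockout most often nearest to the other group over the called genes. Over genes, deviations of same-numbered arrays from their group means correlated at -0.06 to 0.16. Other pairs of a control and a knockout gave -0.13 to 0.07. Control 1 and knockout 1 had the highest value, 0.16. So few arrays cannot settle whether the numbers pair them. Plots used matplotlib 3.10.9 under Python 3.11.15.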

Additional observations from a re-analysis of the deposited data

Results flagged for a closer look

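In 6 of 88 groups of 4 arrays, from the 44 named genes, 1 array stood far from the other 3, its gap to the nearest taking more of the group's range than Dixon's critical value for 4 samples. Chance gives about 1 in 20 such groups. The share was 0.881 for Slc38a6 in knockout 4 (highest), 0.830 for Slc43a3 in control 1 (lowest), 0.866 for Slc38a7 in knockout 1 (highest), 0.936 for Sesn1 in control 3 (lowest), 0.891 for Chac1 in knockout 4 (highest) and 0.912 for Ggct in control 4 (lowest). No array carried more than 2 of these.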

How the results depend on the processing

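Of the 11 higher members, 4 were called under all 19 alternatives: Slc7a5, Slc7a1, Slc38a6 and Slc36a4. With each array left out in turn, 7 to 11 members were higher and 0 to 1 lower, over all genes 753 to 1162 were higher and 507 to 960 lower, other carriers had 1 to 2 higher, the sensing list 1 to 2 lower, and the use list 4 to 7 higher. Cyclic loess gave 2 lower members and leaving out control 3 and knockout 2 gave 1. A change of at least 1.5-fold left 4 higher members, 597 higher and 313 lower genes over all, 0 lower other carriers and 4 higher genes of the use list. An adjusted p under 0.01 left 6 higher members, 567 higher and 358 lower genes, 0 higher and 0 lower other carriers and 3 higher genes of the use list. Without dim genes 0 other carriers were lower, and the sensing list and the use list each had 5 higher genes. Slc3a1, not called, ran from -0.028 (without knockout 1) to 0.11 with each array left out, and was -0.0062 without control 4. Causes were not tested, beyond the stricter thresholds and the smaller number of arrays or genes themselves.

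With the replicate block, 9 members were higher and 0 lower: Slc38a1, Slc6a6 and Slc7a2 lost their calls and Slc1a5 gained one. The replicate numbers share no known animal or batch. Of the higher members Slc7a11 and Slc7a2 lie below the array median, so their values rest on the dimmest signal.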
